A study of Mus musculus with 15 samples.

Results

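The islands and promoters whose H3K27me3 differed between wild type mouse liver at 96 h of regeneration and liver at 0 h were drawn from the authors' SICER island lists for chromosomes 1 to 19. An island is a run of enriched windows, and it counted as present when its false discovery rate (FDR) was 0.01 or below. An island that shared no base with any island of the other list counted as absent there. By this rule 2323 of the 12146 islands of the 0 h list were absent at 96 h (19.1%), and 2852 of the 13942 islands of the 96 h list were absent at 0 h (20.5%), 5175 islands in all. The wild type and Uhrf1hepKO H3K27me3 lists of the series held 73492 islands together, and the 3 lists compared here held 36561.

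All samples were liver of C57Bl/6 mice aged 8 to 12 weeks on a normal diet, harvested in the morning, and chromatin was cut into mononucleosomes with micrococcal nuclease. The groups used were wild type liver at 0 h, at 30 h, at 40 h and at 96 h of regeneration, a further wild type baseline liver with no time label (called baseline 1 below) and baseline Uhrf1hepKO liver, each with 1 H3K27me3 library. The labels do not say how regeneration was started, how the hepatocyte knockout was made, or whether the libraries came from separate or pooled animals. With 1 library at 96 h, no test between times was possible, and the distance between the 0 h library and baseline 1 is given throughout as the measured difference between 2 unregenerated livers. The 0 h and 96 h labels name the same round and the baseline 1 label names none, so that difference holds any effect of round as well as of liver, and these cannot be told apart. Whole liver holds several cell types, so fewer cells carrying the mark and less of the mark per cell cannot be told apart.

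H3K27me3 is trimethylation of lysine 27 of histone H3, written by EZH1 and EZH2 in Polycomb repressive complex 2 and removed by the KDM6 demethylases. It covers promoters of developmental regulators and of genes of other lineages that a tissue keeps silent, and it is diluted on newly made chromatin when cells replicate their DNA. In regenerating liver most hepatocytes leave quiescence, divide and then return to rest, so parental histones are shared between daughter strands and the mark has to be written again. CpG-rich promoters without active transcription are its usual sites in differentiated cells.

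Of the promoters with the highest fold, 3 from each direction are printed with CG dinucleotides in capitals. A promoter was the window of 1 kb either side of a gene's start, and a promoter counted as marked when any base of that window lay in an island. Where RefSeq listed several starts for a gene, each had a window, and the gene counted as marked when any was met. Sequences and CG values are those of the first listed start, which need not be the marked one. At some named genes, such as Fgf14 and Olfm2, the island lay inside the gene, away from both ends. The printed stretch runs from 250 bases before the RefSeq start to 50 bases after it, in GRCm38.p6. The first 3 were marked in both baseline libraries and unmarked at 96 h. Cacng6 (chr7:3424412-3424711, plus strand) held 8 CG, Pdpn (chr4:143299515-143299814, minus strand) held 7, and Ccdc182 (chr11:88293793-88294092, plus strand) held 7, below the median of 14 over all promoters with a sequence.
Cacng6: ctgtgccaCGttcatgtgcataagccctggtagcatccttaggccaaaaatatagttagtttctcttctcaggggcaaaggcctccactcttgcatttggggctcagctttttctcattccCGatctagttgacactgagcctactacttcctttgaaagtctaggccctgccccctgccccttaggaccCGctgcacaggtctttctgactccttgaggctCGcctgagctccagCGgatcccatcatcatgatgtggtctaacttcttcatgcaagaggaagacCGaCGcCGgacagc
Pdpn: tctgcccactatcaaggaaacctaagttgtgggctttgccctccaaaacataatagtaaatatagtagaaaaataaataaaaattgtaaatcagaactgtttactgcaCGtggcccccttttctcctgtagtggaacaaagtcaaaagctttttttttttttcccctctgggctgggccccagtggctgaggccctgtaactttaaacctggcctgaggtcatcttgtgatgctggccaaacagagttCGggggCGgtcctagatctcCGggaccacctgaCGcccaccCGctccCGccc
Ccdc182: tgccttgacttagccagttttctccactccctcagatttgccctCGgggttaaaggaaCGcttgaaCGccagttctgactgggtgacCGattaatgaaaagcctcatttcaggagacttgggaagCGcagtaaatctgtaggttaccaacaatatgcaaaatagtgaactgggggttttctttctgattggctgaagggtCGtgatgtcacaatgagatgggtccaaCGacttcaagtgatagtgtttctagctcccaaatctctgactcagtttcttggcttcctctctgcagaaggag

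The next 3 were unmarked in both baseline libraries and marked at 96 h. Arpc5 (chr1:152766292-152766591, plus strand) and Podn (chr4:108031905-108032204, minus strand) are CpG islands with 41 CG each. Cd244a (chr1:171558943-171559242, plus strand) has 2 CG. Arpc5, Cd244a and Podn were the first 3 by fold at which RefSeq gave a promoter sequence. The printed sequences do not stand for their classes. The median number of CG was 5 over the 212 sequences marked in both baseline libraries and unmarked at 96 h. It was also 5 over the 274 sequences unmarked in both baseline libraries and marked at 96 h.
Arpc5: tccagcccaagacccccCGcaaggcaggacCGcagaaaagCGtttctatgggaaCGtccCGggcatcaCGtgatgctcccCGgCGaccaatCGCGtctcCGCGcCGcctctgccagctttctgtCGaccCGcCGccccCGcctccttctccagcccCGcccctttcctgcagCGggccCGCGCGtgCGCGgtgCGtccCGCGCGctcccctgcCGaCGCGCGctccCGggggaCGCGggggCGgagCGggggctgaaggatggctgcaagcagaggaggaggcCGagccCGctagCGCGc
Cd244a: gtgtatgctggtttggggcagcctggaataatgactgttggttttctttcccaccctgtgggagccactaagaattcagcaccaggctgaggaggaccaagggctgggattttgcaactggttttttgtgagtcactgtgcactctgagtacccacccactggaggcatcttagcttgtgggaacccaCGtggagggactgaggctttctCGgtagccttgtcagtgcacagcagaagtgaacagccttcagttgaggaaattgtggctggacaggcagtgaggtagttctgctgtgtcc
Podn: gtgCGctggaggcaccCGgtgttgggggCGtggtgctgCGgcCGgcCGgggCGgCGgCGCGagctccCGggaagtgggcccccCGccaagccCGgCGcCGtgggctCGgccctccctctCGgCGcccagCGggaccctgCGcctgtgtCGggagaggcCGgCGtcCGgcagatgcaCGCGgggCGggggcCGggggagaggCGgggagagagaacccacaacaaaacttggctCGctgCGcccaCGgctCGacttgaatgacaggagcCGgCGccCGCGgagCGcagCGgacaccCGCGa

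None of 49 hepatocyte genes and none of 38 housekeeping genes was marked at 0 h, at 96 h or in baseline 1, whereas all 39 Hox genes were marked in the 3 libraries. Islands of the 0 h, baseline 1 and 96 h lists held 21.7, 16.4 and 21.4 M ChIP reads and covered 482.3, 417.2 and 458.5 Mb. Of 239 islands with the same bounds in both lists at any FDR, 1 had the same control count, whereas all 213 shared between 30 h and 96 h and all 242 shared between 40 h and 96 h had it. The 0 h list was therefore made against other control reads than the later 3, and this difference cannot be told apart from time.

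Regenerating liver at 96 h differed from 0 h liver about as much as the 2 baseline livers differed from each other. The 0 h and 96 h islands shared 342.6 Mb, which was 57.3% of the length in either list, and the 0 h and baseline 1 islands also shared 57.3%. Baseline 1 and 96 h shared 61.7%, the highest of the 3 pairs. By promoters the 2 baseline libraries were the least alike, with 1761 promoters marked in 1 library of the pair at 0 h and 96 h, 2001 at 0 h and baseline 1, and 1460 at baseline 1 and 96 h. Thus the 96 h library was nearer to each baseline library, by promoters, than those were to each other.

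For promoters, the direction of the difference turned on which baseline library stood for the state before regeneration. Against 0 h, 1187 promoters were marked before and unmarked at 96 h (5.74% of 20665 protein-coding genes) and 574 were marked at 96 h and unmarked before (2.78%). Against baseline 1, 471 were marked before and unmarked at 96 h, and 989 were marked at 96 h and unmarked before. By number of islands, gains exceeded losses against either baseline library. By length the direction turned as it did for promoters. Between 0 h and 96 h, 139.7 Mb lay in islands at 0 h only and 115.9 Mb at 96 h only. Between baseline 1 and 96 h, 83.1 Mb lay in islands of baseline 1 only and 124.4 Mb at 96 h only. Of the 10473 islands of baseline 1, 867 were absent at 96 h (8.28%), while 3662 islands of the 96 h list were absent in baseline 1 (26.3%). The 0 h list itself had 3495 islands absent in baseline 1 (28.8%), more than its 2323 absent at 96 h, and baseline 1 had 1336 absent at 0 h (12.8%).

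**Figure D1:**
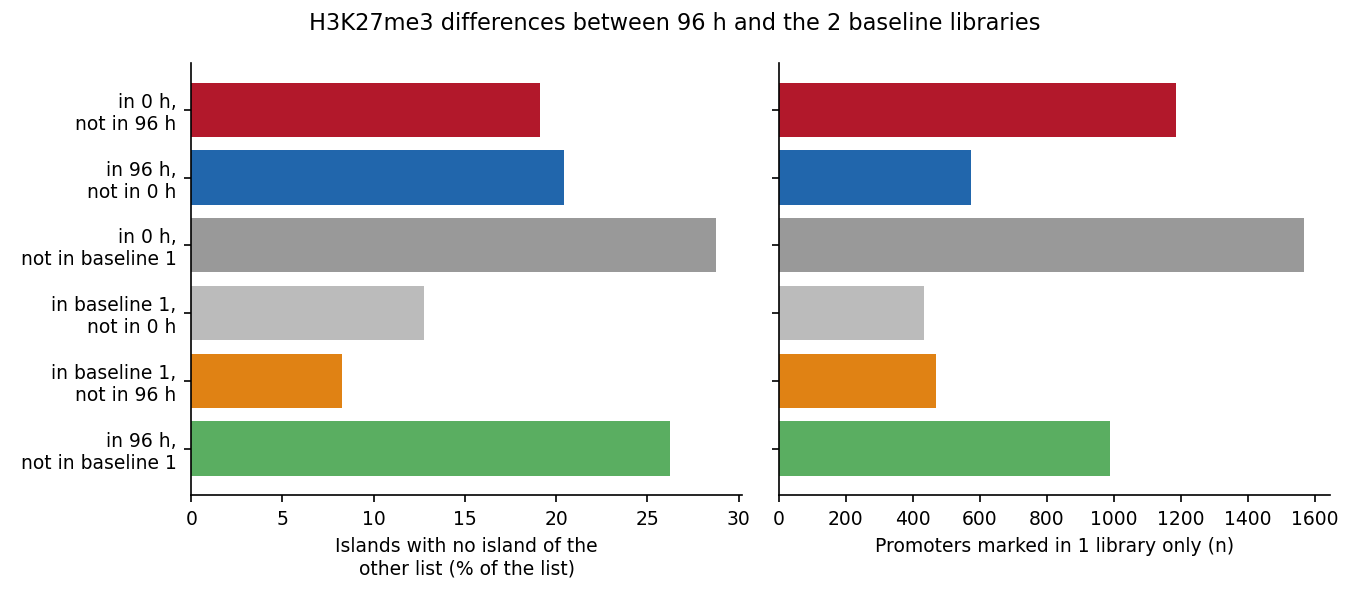
Differences between the 0 h, baseline 1 and 96 h libraries, with the share of each list's islands that have no island in the other list (left) and the number of promoters marked in the first library and unmarked in the other (right); each bar is a single pair of libraries, so there are no error bars. The bars for 0 h against baseline 1 (28.8% and 1566 promoters) are longer than those for 0 h against 96 h (19.1% and 1187).

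Weak islands made up much of the turnover. When the 0 h list was cut into 5 equal parts by the authors' fold over control, 39.3% of islands in the lowest part and 8.32% in the highest were absent at 96 h. In the 96 h list, 43.1% of the lowest part and 5.70% of the highest were absent at 0 h. Absence from baseline 1 followed the same slope at a higher level, from 52.1% to 15.6% in the 0 h list and from 48.8% to 14.5% in the 96 h list. Differing islands were also short, with a median of 18 kb for those lost and 19 kb for those gained, against 29 kb and 26 kb for the islands of the same lists that met an island in the other. Here lost means present at 0 h and absent at 96 h, and gained the reverse, as a description of the lists.

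**Figure D2:**
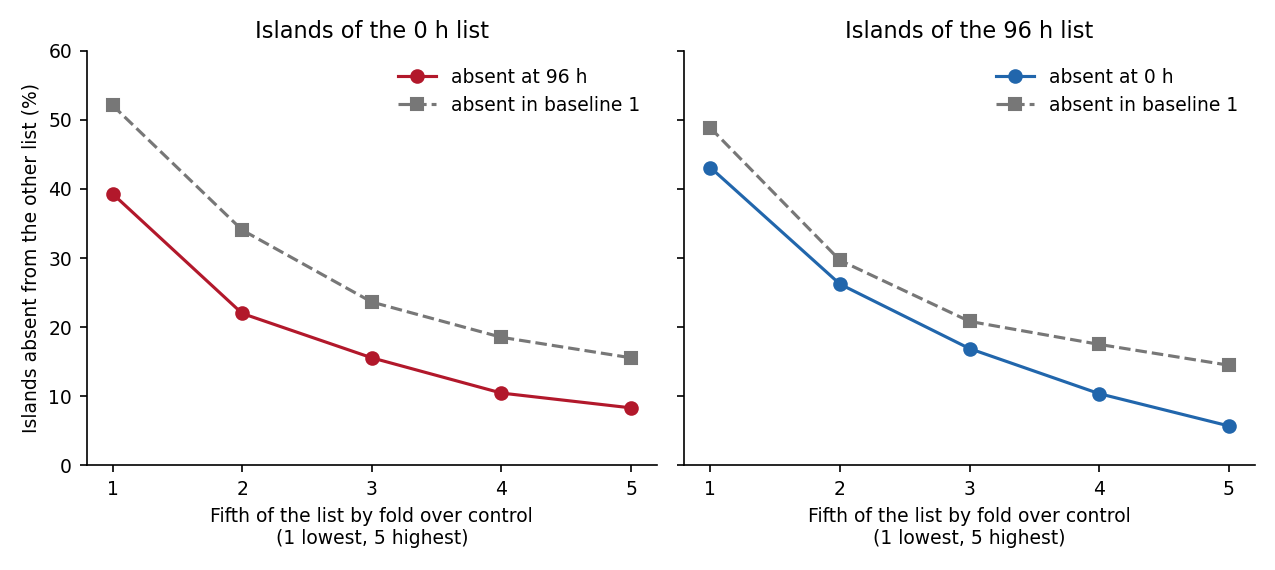
Share of islands absent from another list (vertical axis, percent) across 5 equal parts of the list by the authors' fold over control (horizontal axis, lowest to highest) for the 0 h list (left) and the 96 h list (right). Solid lines compare 0 h with 96 h and dashed lines compare each with baseline 1, and in both panels the dashed line lies above the solid line in each of the 5 parts.

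Baseline 1 held a smaller share of the lost islands than of the gained ones. An island of baseline 1 overlapped 468 of the 2323 lost islands (20.2%, 95% Clopper-Pearson interval 18.5% to 21.8%), so 1855 of them were in the 0 h list alone of the 3. Baseline 1 had already held 1058 of the 2852 gained islands before any regeneration (37.1%, interval 35.3% to 38.9%), which left 1794 found in neither baseline list. These intervals cover counting error only. The 468 lost islands covered 11.2 Mb and the 1794 gained islands 34.2 Mb. Of the 468, 280 (59.8%) met an island at 30 h and 182 (38.9%) at 40 h, whereas 30.3% and 29.5% of the 1794 gained islands did. Of the 1058 gained islands in baseline 1, 50.4% and 48.6% did, and of the 1855 in the 0 h list alone, 29.9% and 25.8%. These shares thus followed the number of lists that held the island, and the contrast is not one of direction.

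The differing islands lay away from genes more often than the rest. Over 5 kb from any protein-coding gene lay 42.3% of the lost and 57.9% of the gained islands, against 36.1% and 36.7% of the islands of the 0 h and 96 h lists that met each other. A promoter window fell in 21.7% of the lost and 11.7% of the gained islands, against 38.9% and 35.1%. The islands that met each other were longer, and the part of length in these shares was not tested. By chromosome, the lost share of the 0 h list ran from 12.8% on chromosome 16 to 25.6% on chromosome 17, and the gained share of the 96 h list from 13.8% on chromosome 9 to 28.6% on chromosome 3.

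Among the promoters, 267 were marked at 0 h and in baseline 1 and unmarked at 96 h (1.29% of 20665), and 343 were unmarked in both baseline libraries and marked at 96 h (1.66%). The other 920 lost promoters were marked in the 0 h library alone of the 3, and the other 231 gained promoters were marked in baseline 1 as well. A further 4047 promoters were marked in all 3 libraries and 14007 in none. The 267 lost promoters lay in 237 islands, and 79 of them were in an island that was wholly absent at 96 h, so at most of them the 96 h island ended short of the promoter. The nearest 96 h island lay a median of 5.18 kb from the promoter window, with 65 of 267 within 1 kb and 137 beyond 5 kb, and 12 had a 96 h island above the FDR limit. The 343 gained promoters lay in 321 islands, 228 of them in a wholly new island, and the median distance to the nearest 0 h island was 37.7 kb.

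The 267 lost promoters were marked elsewhere more often than the 343 gained ones, but the choice of members differed. The 267 had to be marked in both baseline libraries, whereas the 343 had to be marked in the 96 h library alone. At 30 h 46.4% of the lost and 17.5% of the gained promoters were marked, at 40 h 38.6% and 18.7%, and in Uhrf1hepKO liver 69.7% and 22.2%. The 231 promoters marked at 96 h and in baseline 1 reached 47.2%, 44.6% and 61.5%. The 920 marked in the 0 h library alone reached 17.3%, 17.0% and 20.2%. These shares thus followed the number of libraries that the choice required, and the contrast is not one of direction. Promoters marked in all 3 libraries reached 70.9%, 68.9% and 94.9%, and promoters marked in none 0.964%, 1.16% and 0.871%. The lists at 30 h and 40 h marked fewer promoters altogether, 3721 and 3612, against 5880 at 0 h, 4749 in baseline 1 and 5267 at 96 h. Both kinds of differing promoter thus stood between the stably marked and the stably unmarked ones in these other libraries.

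Both kinds were poor in CG. The ratio of observed to expected CG, which approaches 1 in CpG islands, had a median of 0.26 at the 267 lost promoters and 0.34 at the 343 gained ones, against 0.50 at promoters marked in all 3 libraries, 0.67 at those marked in none and 0.60 over all 16452 promoters with a sequence. A wild type H3K4me3 peak, the mark of open promoters, met 35.2% of the lost and 45.2% of the gained promoters in the first H3K4me3 library and 31.1% and 41.1% in the other, against 47.5% and 27.9% of those marked in all 3 and 74.2% and 71.7% of those marked in none. For 2753 of the 20665 genes the start itself had been set by H3K4me3. H3K9me3 peaks met 3.00% and 1.75%, near the 1.88% of all promoters. The letters TATAAA, searched on both strands of the printed type of window, occurred in 17.5% of the lost, 21.5% of the gained and 13.5% of all promoters.

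**Figure D3:**
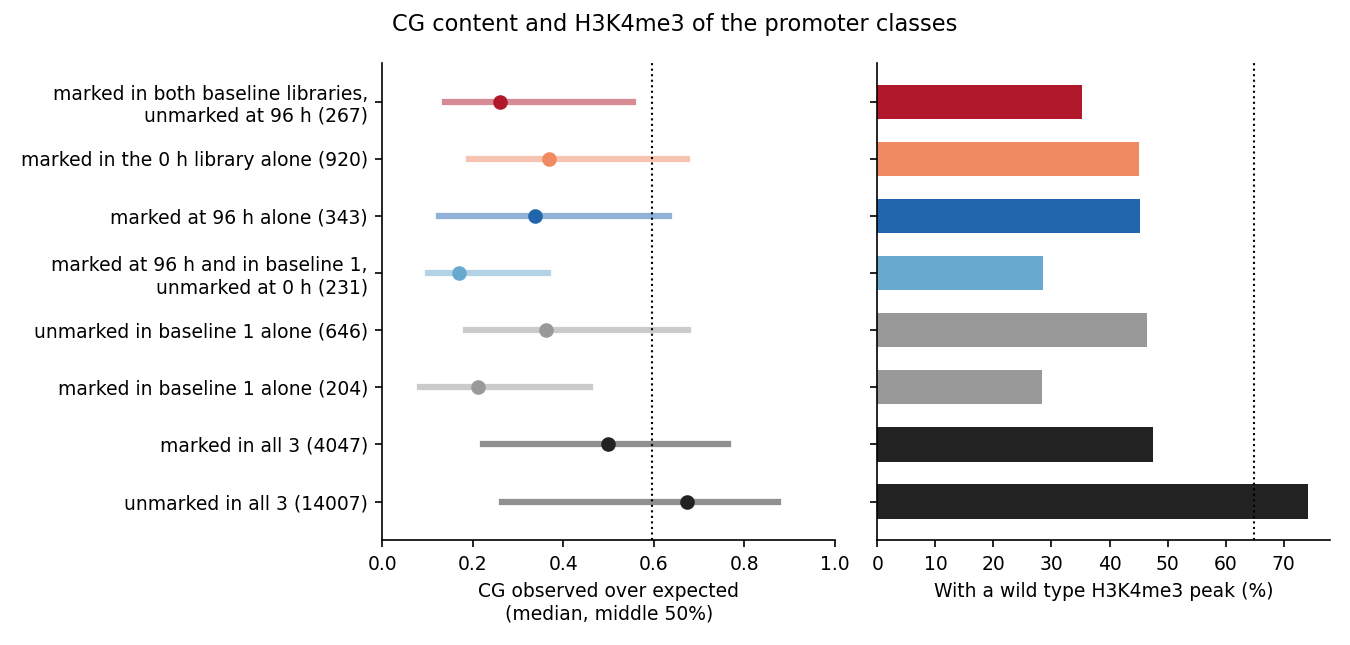
Ratio of observed to expected CG dinucleotides (left, points are medians and bars the middle 50%) and share with an H3K4me3 peak in the first wild type library (right, percent) for 8 classes of promoters by their H3K27me3 in the 0 h, baseline 1 and 96 h libraries; the number of promoters is in brackets and the dotted line is the value over all promoters. Each class that differed between libraries has a lower median CG ratio than the promoters marked in all 3 (0.50).

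Base composition differed between the libraries. Promoters marked at 0 h and unmarked at 96 h had a median GC content of 55.7%, and those marked at 0 h and unmarked in baseline 1 had 56.3%. Promoters unmarked at 0 h had less GC, with 47.7% for those marked at 96 h and 46.0% for those marked in baseline 1. Between baseline 1 and 96 h the medians were 50% for promoters marked in baseline 1 alone of the pair and 54.3% for those marked at 96 h alone. Over all promoters the median was 56.7%. The part of base composition in the counts of lost and gained promoters was not tested.

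The named lost promoters are the 12 with the highest fold in the 0 h list among those marked in both baseline libraries, with no 96 h island within 5 kb and 1 gene per island; 125 of the 267 promoters met the distance rule. Cacng6, a gamma subunit of voltage-gated calcium channels on chromosome 7 (3423588 to 3435667), had the highest fold. Its start lay in an 18 kb island of the 0 h list (3409001 to 3427000) with 763 ChIP and 523 control reads, a fold of 3.26 within that list. It was marked in baseline 1 in an island of 2266 ChIP reads and in Uhrf1hepKO liver in an island of 2488, and unmarked at 30 h, 40 h and 96 h, when the nearest island was 60.3 kb away. Pdpn on chromosome 4 encodes podoplanin, a surface glycoprotein of lymphatic endothelium. Its 11 kb island held 442 ChIP and 341 control reads at 0 h (fold 2.90), it was marked in baseline 1 and in the knockout, and no island lay within 246.6 kb at 96 h. Ccdc182 on chromosome 11 had a 22 kb island at 0 h with 771 ChIP reads (fold 2.57) and the same pattern over the 6 libraries. The choice of genes fixed the states of these 3 promoters at 0 h, in baseline 1 and at 96 h. Their states at 30 h, at 40 h and in the knockout played no part in it. Over all 267 promoters, 46.4%, 38.6% and 69.7% were marked in those libraries.

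St8sia4, a polysialyltransferase of the nervous system, had an 8 kb island of 449 ChIP reads at 0 h (fold 2.31) and was unmarked in the knockout as well as at 30 h, 40 h and 96 h. Chrng, the gamma subunit of the fetal muscle acetylcholine receptor, lay in a 69 kb island (fold 2.18) and was unmarked in the same 4 libraries. Fgf14, a regulator of neuronal sodium channels, had a 5 kb island of 255 reads (fold 1.93) and again was marked in the 2 wild type baseline libraries alone. Klk10, a kallikrein-related peptidase (fold 2.11), Igdcc4, an immunoglobulin superfamily membrane protein (1.99), and Dnaic2, a dynein chain of motile cilia (1.99), were marked in both baseline libraries and the knockout and unmarked at 30 h, 40 h and 96 h. Sapcd2 (1.93), which shares its island with Uap1l1, was the exception among the 12 because it was marked at 30 h. A 252 kb island at 0 h over Ppp1r9b, which encodes the neuronal phosphatase scaffold spinophilin, also covered the starts of Sgca and Tmem92 (1.94), and 96 h islands stopped 14.8 kb from the Ppp1r9b window.

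The cytokine genes Lta, Ltb and Tnf, neighbours in the major histocompatibility region of chromosome 17, shared a 31 kb island at 0 h (35180001 to 35211000) with 1427 ChIP and 1635 control reads and a fold of 1.951. The start of Lta was marked at 0 h and in baseline 1 and unmarked at 30 h, 40 h and 96 h, with the nearest 96 h island 69.7 kb away. In the knockout an island ended 0.351 kb from the Lta window. Tnf encodes a cytokine that primes hepatocytes for division, and it was the only member of 52 growth factors and receptors of regeneration lost from both baseline libraries. This loss is 1.92% of the list, beside 1.29% of all promoters. Tgfb1 and Erbb4 of that list were marked in the 0 h library alone of the 3.

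The named gained promoters are the 12 with the highest fold in the 96 h list among those unmarked in both baseline libraries, by the same rule, which 246 of the 343 promoters met. Arpc5, a subunit of the actin-nucleating Arp2/3 complex on chromosome 1 (152766542 to 152775580), came first. Its island was 2 kb long (152764001 to 152766000), held 193 ChIP and 112 control reads at 96 h, and had a fold of 3.93 in that list. It overlapped the neighbouring gene Rgl1 and ended before the first base of Arpc5, so it met the promoter window of Arpc5 and not the printed sequence. Its CpG island promoter carried an H3K4me3 peak in both wild type libraries. Cd244a, a receptor of natural killer cells, shared an 88 kb island with Itln1, which encodes the lectin intelectin (171509001 to 171597000; 8523 ChIP and 5543 control reads; fold 3.51), and neither H3K4me3 library had a peak at its start. In the 0 h list and in baseline 1 the nearest island ended 7.81 kb from the Cd244a window. Thus the 2 highest folds among these 12 gained promoters came from islands of 2 kb and 88 kb.

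The other 10 gained promoters lay in islands of 4 to 18 kb with 240 to 908 ChIP reads, and each carried an H3K4me3 peak in the first wild type library. At Naaladl2, Gpc6, Angpt1, Elovl3 and Snx16 RefSeq promoters gave no start, and the gene end with more H3K4me3 was taken, so the peak there follows from the choice. No strand was known for these genes, so the end taken need not be the start. At Elovl3 it was the end at 46135694, and the island did not reach the window of the end at 46131897. Naaladl2, a peptidase-like gene, had a fold of 2.93 in 4 kb. Podn, which encodes the matrix proteoglycan podocan, had 2.82 in 6 kb and 327 reads. Matrix and vessel genes followed, with Gpc6, a glypican (2.34), and Angpt1, the ligand of the endothelial receptor TIE2 (2.27; 463 reads in 9 kb). Ankrd34a shared its island with Lix1l and Polr3gl (2.46), and Olfm2, an olfactomedin, had 2.30. Hspa2, a heat shock protein of germ cells, had 2.26, Elovl3, an elongase of very long chain fatty acids, 2.25, Snx16, an endosomal sorting nexin, 2.23, and Car7, a carbonic anhydrase, 2.20. All 12 were unmarked at 30 h and 40 h, and all but Snx16 were unmarked in the knockout. The distance from the window to the nearest 0 h island ran from 6.31 kb at Elovl3 to 1005 kb at Naaladl2.

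**Figure D4:**
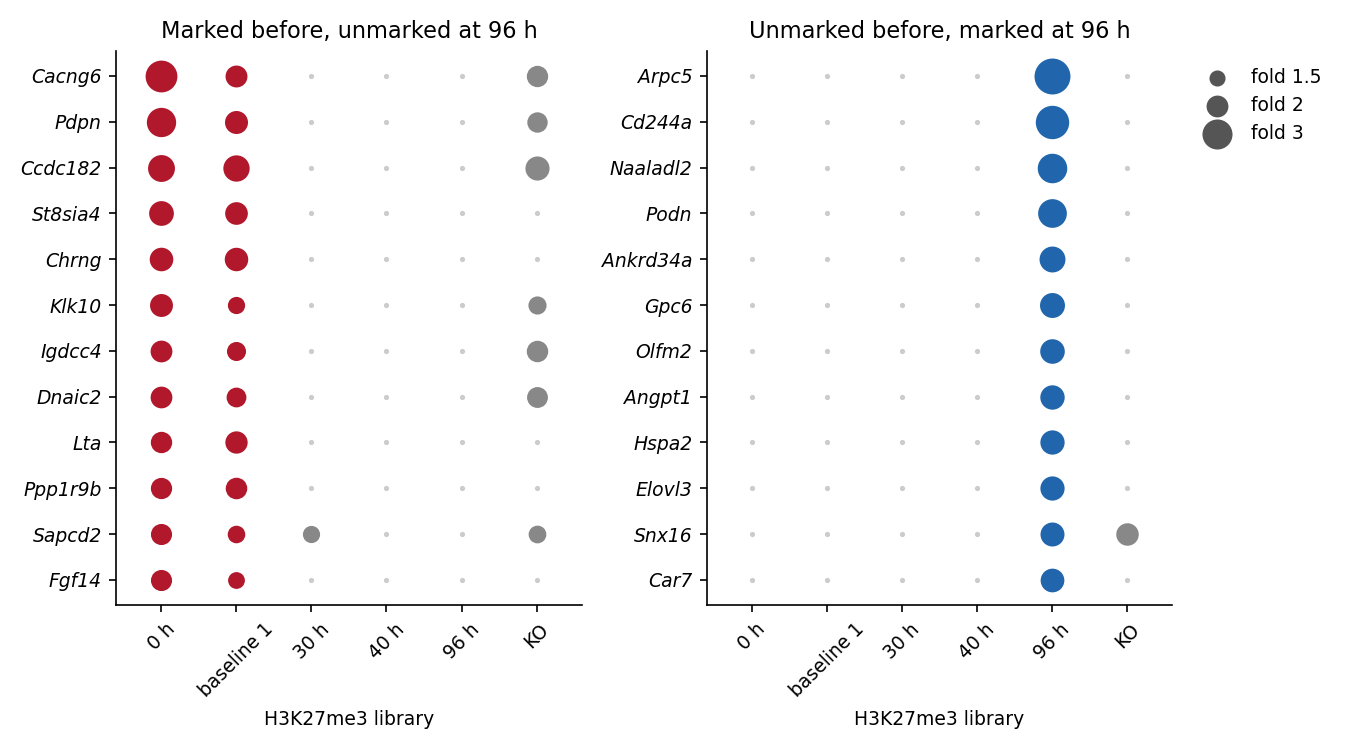
H3K27me3 at the 12 promoters with the highest fold among those marked in both baseline libraries and unmarked at 96 h (left) and the reverse (right), across the 6 H3K27me3 libraries (horizontal axis; KO is Uhrf1hepKO). Circle area grows with the authors' fold of the island over the promoter, which is comparable within a column only, and a small grey dot means no island; the choice of genes fixes the 0 h, baseline 1 and 96 h columns, whereas the 30 h, 40 h and KO columns played no part in it.

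Gene groups differed in how much the 2 baseline libraries backed the change. All 39 Hox genes were marked at 0 h, at 96 h and in baseline 1, while 12 were marked at 30 h and 21 at 40 h. Of 87 other homeobox and paired-box genes, 81 were marked in each baseline library and 84 at 96 h, with 0 lost and 3 gained, while 43 were marked at 30 h and 56 at 40 h. The gains are 3.45% of the list, beside 2.78% of all promoters. The gained 3 were Meis2 (fold 2.78, 52 kb), Meis1 (1.82, 53 kb) and Nkx2-6 (1.90, 49 kb), homeodomain factors of limb, blood and heart development. Their windows lay 2.38, 5.03 and 7.46 kb from the nearest 0 h island, and they were unmarked at 30 h, 40 h and in the knockout. Of 41 Wnt ligand, Frizzled and Dkk genes, 0 were lost and Dkk3, a secreted Dickkopf protein, was gained (in a 9 kb island, 136 kb from the nearest 0 h island). This gain is 2.44% of the list, beside 2.78% of all promoters.

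Few genes of cell division were marked in any of the 3 libraries, whereas genes of Polycomb itself were marked near the share of all promoters. That share was 28.5% at 0 h, 23.0% in baseline 1 and 25.5% at 96 h. Of 46 cell cycle and DNA replication genes, 7 were marked at 0 h (15.2%) and 4 each in baseline 1 and at 96 h (8.70%). Against 0 h 3 were lost, 6.52% of the list beside 5.74% of all promoters, and 0 were gained. The mitotic checkpoint kinase gene Bub1 was lost from both baseline libraries, but a 96 h island ended 0.142 kb from its window. Ccnd1, the D cyclin of hepatocyte entry into the cell cycle, and the CDK inhibitor gene Cdkn1c were marked in the 0 h library alone of the 3. Of 30 Polycomb and H3K27 demethylase genes, 7 were marked before in each library (23.3%) and 8 at 96 h (26.7%). The gain was Pcgf5, a ring finger subunit of Polycomb repressive complex 1 (1.61, 16 kb). This is 3.33% of the list, beside 2.78% of all promoters.

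Several families had fewer marked promoters at 96 h than at 0 h, yet baseline 1 had as few or fewer. Of 42 collagen genes, 34 were marked at 0 h, 22 in baseline 1 and 25 at 96 h. Of the 10 lost against 0 h, 9 were marked in the 0 h library alone of the 3, among them Col5a3, Col7a1 and Col11a2, and Col6a1 (1.54, 23 kb) was marked in both baseline libraries. Of 90 cadherin and clustered protocadherin genes, the cell adhesion proteins of neurons and vessels, 56 were marked at 0 h, 37 in baseline 1 and 44 at 96 h. All 14 lost there were marked in the 0 h library alone of the 3, 12 of them Pcdha and Pcdhb genes that share islands; Cdh13 was also marked at 30 h, at 40 h and in the knockout. Of 92 potassium channel genes, the counts were 79, 65 and 71, with 9 of 10 lost genes marked at 0 h alone of the 3, including Kcnn1 (fold 3.22) and Kcna4 (2.22). In these 3 families, as in the amine, peptide and orphan G protein receptor genes (80, 67 and 74 of 115) and the solute carrier genes (126, 100 and 111 of 376), the 96 h library lay between the 2 baseline libraries.

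Markers of the non-hepatocyte cells of liver differed little beyond the 0 h library. Of 24 lymphocyte markers, 16 were marked at 0 h, 12 in baseline 1 and 12 at 96 h. Gzma, a protease of cytotoxic cells (1.38), was unmarked in both baseline libraries and marked at 96 h. Cd79b, Lck, Klrb1c and Ms4a1 were marked in the 0 h library alone of the 3. Of 21 macrophage and myeloid markers, 16 were marked at 0 h and 13 in each of the other 2 libraries, and the 3 lost, Spi1, Csf1r and Cx3cr1, were all marked at 0 h alone of the 3. Of promoters marked at 0 h, 31.25% of the lymphocyte and 18.75% of the macrophage and myeloid markers were lost, beside 20.2% over all promoters marked at 0 h. Of 20 bile duct cell markers, 11, 9 and 11 were marked at 0 h, in baseline 1 and at 96 h. Among 24 endothelial markers, 15, 13 and 15 were marked in the same order. Clec4g, a lectin of sinusoidal endothelium, was gained (1.45, 36 kb), and Cdh5 (1.49, 33 kb) was lost, marked in the 0 h library alone of the 3. Both were also marked in the knockout. Each is 4.17% of the list, beside 2.78% gained and 5.74% lost over all promoters.

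Interleukin and chemokine genes changed in both directions. Of 117, 50 were marked at 0 h, 49 in baseline 1 and 47 at 96 h. Lost from both baseline libraries were Ccl17 (1.77), Il4 (1.74), Il17f (1.67), Il21r (1.65) and Il3 (1.51), which act on or come from T cells, and each was marked in the knockout. All of these but Il21r were also marked at 40 h. Gained were Il12rb2 (2.06), Il5 (1.52), Il9 (1.47), Xcl1 (1.37) and Il22ra2 (1.26). Il5 and Xcl1 were also marked at 30 h, at 40 h and in the knockout, Il12rb2 at 40 h, and Il9 and Il22ra2 in none of these. Il4 and Il5, neighbours on chromosome 11, thus went opposite ways between the baseline libraries and 96 h, although both were marked at 40 h and in the knockout. The nearest 96 h island lay 13.3 kb from the Il4 window and the nearest 0 h island 73.8 kb from the Il5 window. The 5 lost of 117 and the 5 gained of 117 stand beside 1.29% and 1.66% of all promoters.

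Histone genes were the list with the highest share of its 0 h marks lost, 6 of 8, a small base. Of 75, 8 were marked at 0 h, 4 in baseline 1 and 2 at 96 h. The 6 lost are 8.0% of the list, beside 5.74% of all promoters. The 2 lost from both baseline libraries are 2.67%, beside 1.29%. The 2 lost from both baseline libraries, H2ac22 and H2bc22, are divergent neighbours on chromosome 13 in a single 15 kb island (1.75), and a 96 h island ended 0.513 kb from the H2bc22 window. H2aw, H2bc14, H1f8 and H1f7 were marked in the 0 h library alone of the 3. Near-identical histone copies can share reads, and the counting does not show how such reads were placed.

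**Figure D5:**
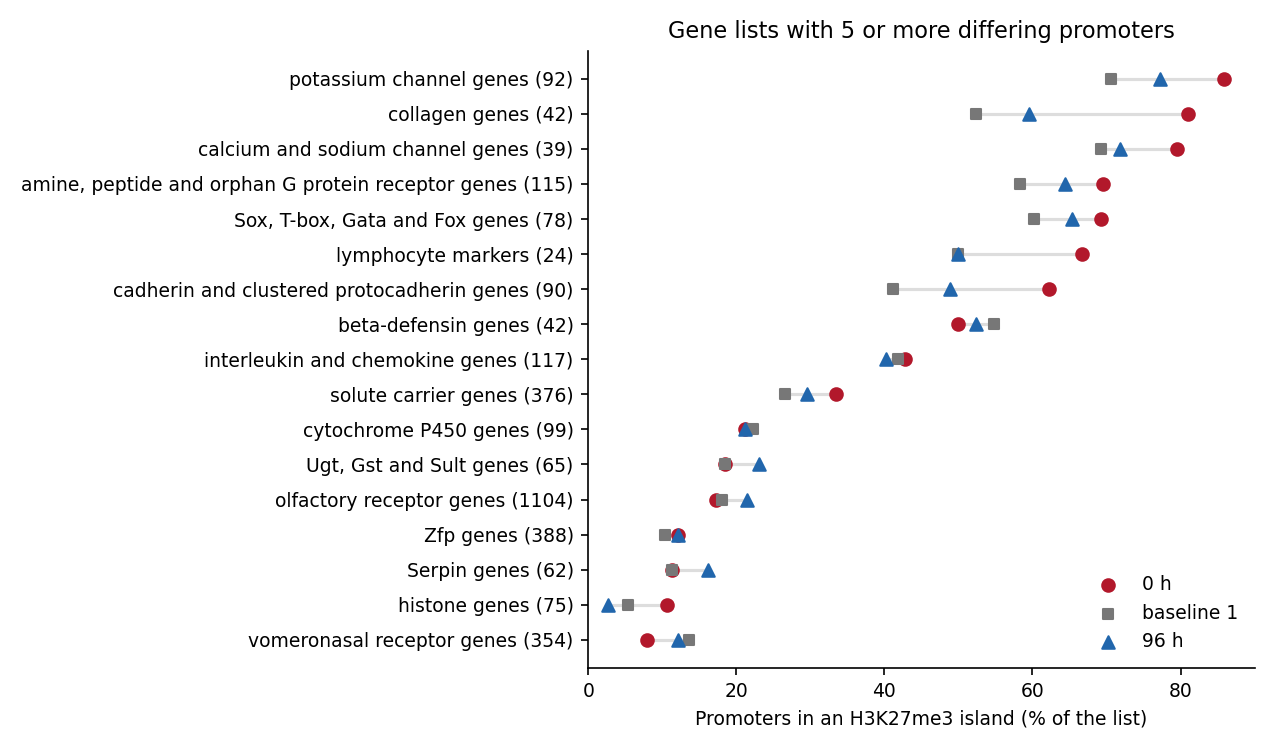
Share of each gene list's promoters in an H3K27me3 island (horizontal axis, percent) at 0 h, in baseline 1 and at 96 h, for the lists with 5 or more promoters lost or gained between 0 h and 96 h; the number of genes is in brackets and each point is 1 library. In the collagen and the cadherin and protocadherin lists the 96 h point lies between the 2 baseline points, whereas in the olfactory receptor list it lies above both.

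Olfactory and vomeronasal receptor genes went the other way. Of 1104 olfactory receptor genes, which stand in clusters and are silent outside the nose, 190 were marked at 0 h, 200 in baseline 1 and 237 at 96 h. Against 0 h 72 were gained and 25 lost; 35 were gained from neither baseline library, in 30 islands, and 12 were lost from both. The 72 and 25 are 6.52% and 2.26% of the list, beside 2.78% and 5.74% of all promoters, and the 35 and 12 are 3.17% and 1.09%, beside 1.66% and 1.29%. Olfr1373 (1.79, 63 kb), Olfr6 (1.66, 10 kb) and Olfr1395 (1.63, 37 kb) led the gains, and Olfr315 (1.62) and Olfr691 (1.60) the losses. Of 354 vomeronasal receptor genes, 28 were marked at 0 h, 48 in baseline 1 and 43 at 96 h, with 21 gained (5.93% of the list) and 6 lost (1.695%) against 0 h. Baseline 1 therefore exceeded 96 h in the vomeronasal genes, and there 17 genes of baseline 1 were unmarked at 96 h against 12 in the reverse direction. These families are near-identical copies that can share reads, so single genes are uncertain.

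Single genes of the cytochrome P450, solute carrier, glutathione transferase, sulfotransferase and major urinary protein families are named here as members of their lists. The 376 solute carrier genes held 23 lost (6.12%) and 8 gained (2.13%) against 0 h, beside 5.74% and 2.78% of all promoters. Cyp2a5 and Cyp2g1, neighbours on chromosome 7, lay in a single 52 kb island of the 0 h list (1.56), were marked in both baseline libraries and were unmarked at 30 h, 40 h, 96 h and in the knockout. Of 99 cytochrome P450 genes, 21 were marked at 0 h, 22 in baseline 1 and 21 at 96 h, and Cyp4f39, Cyp2j12 and Cyp4f40 were gained (3.03% of the list, beside 2.78% of all promoters). Slc51a, a subunit of the bile acid exporter OST, was lost (1.78, 8 kb), as was Slc2a4, the insulin-responsive glucose transporter (2.29, 40 kb), with a 96 h island 0.785 kb from its window. Gsto1, a glutathione transferase, was gained (1.60, 30 kb), and so was Sult1c1, a sulfotransferase (1.44, 13 kb). Of 22 major urinary protein genes, 9 were marked at 0 h, 18 in baseline 1 and 7 at 96 h, and the lost Mup10 and Mup18 had 96 h islands within 0.155 kb and 0.094 kb; these genes too are near-identical copies.

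The longest differing islands that baseline 1 backed were weak. Of the lost islands that baseline 1 also held, the 4 longest were 122 to 185 kb, on chromosome 14 (43235001 to 43420000) and chromosome 8 (between 19681001 and 20443000), over predicted genes such as Gm8126 and Gm15319. Their folds were 1.05 to 1.14, with 9908 to 16891 ChIP reads against 20434 to 36086 control reads. Among gained islands absent from both baseline lists, the longest, 146 kb on chromosome 3 (106120001 to 106266000), covered Chia1, Chil3 and Chil4, chitinase-family genes of which Chil3 is made by activated macrophages. It held 8433 ChIP and 18057 control reads (1.07). Islands at 30 h covered 98.0% of it and islands at 40 h all of it, and 0 h, baseline 1 and the knockout covered none. The next longest, 121 kb over Vmn2r111 and Vmn2r112 on chromosome 17 (1.07), was covered to 95.9% at 40 h. The lists at 30 h, 40 h and 96 h share their control reads, and the part of those reads in these weak islands was not tested.

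Among lost islands that baseline 1 also held, those with the highest fold included a pair in Nrxn2, which encodes a neurexin of nerve synapses, on chromosome 19. The 9 kb island (6423001 to 6432000) held 394 ChIP and 246 control reads at 0 h (3.58) and the 26 kb island (6490001 to 6516000) held 1036 and 777 (2.98). Both were wholly covered by baseline 1 and by the knockout, and neither met an island at 30 h, 40 h or 96 h. Neither island met the start used for Nrxn2, which was marked in baseline 1 and unmarked at 0 h and 96 h, so the gene is not among the named promoters. Among gained islands absent from both baseline lists, the 5 with the highest fold lay over Rgl1 beside Arpc5, over Naaladl2, Podn and Ankrd34a, and in a gene desert of chromosome 7 (95687001 to 95691000; 235 ChIP reads; 2.53) that lies 480.2 kb from Tenm4. None of these 5 met an island in any other H3K27me3 library.

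Where islands had the same bounds in both lists, read numbers could be compared directly. Such islands are 1.33% of the 0 h list, and choosing them for equal bounds favours regions whose signal did not change, so their small spread says nothing of the other islands. The 0 h and 96 h lists shared 161 such islands, with a median of 838 ChIP reads at 0 h and 899 at 96 h. The ratio of 96 h to 0 h reads had a median of 1.05, and around that median its log2 values had an SD of 0.28, with the middle 50% from -0.11 to 0.11. Between baseline 1 and 0 h the SD was 0.34 over 150 islands, and between baseline 1 and 96 h it was 0.35 over 271. The middle 50% ran from -0.12 to 0.15 between baseline 1 and 0 h and from -0.07 to 0.08 between baseline 1 and 96 h. The SDs rest partly on the few islands beyond a log2 ratio of 1, which numbered 2 for 0 h and 96 h, 5 for baseline 1 and 0 h, and 7 for baseline 1 and 96 h. The lowest ratio, 0.575 of the median (counting interval 0.555 to 0.597), was at a 42 kb island over Gm40363 on chromosome 6, with 7682 ChIP reads at 0 h and 4655 at 96 h while the control reads were 8854 and 8475. The highest, 4.27 times the median, was at a 6 kb island of chromosome 2 (98662001 to 98668000), where control reads rose as well, from 46353 to 213124.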

How the data were processed

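H3K27me3 was measured by ChIP-seq of micrococcal nuclease-cut chromatin in liver. The authors deposited SICER island lists on mm10 (GRCm38) with, per the file headers or values, counts of ChIP and control reads, a p-value, a fold (a ratio to the scaled control) and an FDR per island; the list names record 1000 bp windows and 4000 bp gaps. The submitters' processing notes also name FastQC 0.11.5, Trimmomatic, BWA, Picard and MACS2. H3K4me3 and H3K9me3 peaks were used by position. Folds are the authors' own, used within a list.

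Here islands with an FDR of 0.01 or below on chromosomes 1 to 19 were compared by overlap of 1 bp or more, in Python 3.11.15 with numpy 2.4.6 and pandas 2.3.3. Starts of 20665 protein-coding genes came from RefSeq promoters of GRCm38.p6 for 16457 genes. For 2753 others the gene end with more H3K4me3 peak length was taken, and for 1455 both ends. Named genes followed the rules given beside them, Gm, LOC and Rik names left out. Up to 5 members per direction of each of 38 gene lists were named when both baseline libraries backed the change; other named genes, such as those marked in the 0 h library alone, were chosen after their values were seen. Members and lists were chosen with earlier results of these data known. No test was made, since each time had 1 library; shares carry 95% Clopper-Pearson intervals in places, for counting error. The overlap code was tested on simulated lists. Alternatives varied the FDR, fold, covered length, window, overlap and the baseline library. Chromosomes X and Y, other contigs and the input tracks were not used. A result for 1 gene is not reported here.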

Additional observations from a re-analysis of the deposited data

How the results depend on the processing

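Of 71 values recomputed under other settings, 61 stayed within 1.5 times the reported count, within 46.0 Mb for covered length (the SD of covered length between the 2 baseline libraries) or, for the read ratio, within its SD over islands. The other 10 came from changing the baseline library or the margin. With baseline 1 in place of the 0 h library, islands lost were 867, length lost 83.1 Mb, promoters lost 471 and promoters gained 989, so the sign of the balance between promoters lost and gained turned; the counts that need both baseline libraries became 471 and 989 with baseline 1 alone, and 1187 and 574 with the 0 h library alone. When absence required no island within 5 kb, the length lost was 92.1 Mb and the promoters lost from both baseline libraries 137. With a fold of 1.5 or more in every list, promoters lost from both baseline libraries were 371 and those gained from neither 335, the reverse order of 267 and 343. At equal covered length, islands lost and gained were 1927 and 3212, and length lost and gained 125.3 and 125.4 Mb. Restriction to genes with a RefSeq start, chosen after seeing the data, gave 212 and 274. No paired analysis was possible because each time has 1 library. The 30 h and 40 h lists held the fewest ChIP reads in islands, 15.2 and 12.8 M, and the part of depth in the weak islands was not tested.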

Other observations

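Further gene groups showed small numbers of differing promoters. Of 388 Zfp zinc finger genes, 47 were marked at 0 h, 40 in baseline 1 and 47 at 96 h. Against 0 h 11 were lost and 11 gained, each 2.835% of the list, beside 5.74% and 2.78% of all promoters. The gained Zfp109 (fold 1.91 in a 5.0 kb island) and Zfp26 (1.88 in 6.0 kb) were unmarked in both baseline libraries, and the lost Zfp593 had a 96 h island 0.410 kb from its window. Of 62 Serpin genes, 7 were marked in each baseline library and 10 at 96 h, with Serpini1, which encodes the neuronal inhibitor neuroserpin, and Serpinb1c gained from neither. These gains are 3.23% of the list, beside 1.66% of all promoters. Of 42 beta-defensin genes, 21, 23 and 22 were marked at 0 h, in baseline 1 and at 96 h, and Defb14, Defb15 and Defb13 were lost from both baseline libraries while Defb48 and Defb34 were gained. These losses and gains are 7.14% and 4.76% of the list, beside 1.29% and 1.66% of all promoters. Of 53 keratin genes, Krt25 (1.89% of the list) was lost from both baseline libraries with a 96 h island 0.050 kb from its window, which places it at a moved border. Among the transcription factors of the Sox, T-box, Gata and Fox families, Foxp2 was lost and Sox7 gained, with the nearest island of the other list 1.35 kb and 1.30 kb away. Each is 1.28% of that list, beside 1.29% lost and 1.66% gained over all promoters.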
